A study of Mus musculus with 8 samples.

Results

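Arntl, Clock, Npas2, Per1, Per2, Per3, Cry1, Cry2, Nr1d1, and Nr1d2 are the core genes of the circadian clock. They were taken by name and not by their values, although earlier results of these data were known. They make up 10 of the 21828 genes in the expression tables of the developing mouse retina described here. RNA was sequenced from 8 samples of ICR (slc:ICR) mice, with 1 library for each condition, and the labels name no mutation or treatment. Whole retinas were taken at embryonic days 15 and 18 (E15 and E18). At postnatal days 2, 5, and 8 (P2, P5, and P8), retinas were pooled, dissociated with trypsin, and sorted for Cd73, a surface protein that marks rod photoreceptors and their precursors and is encoded by Nt5e. The sort split each pool into a positive fraction, Cd73PC, and a negative fraction, Cd73NC. Cd73NC is a mixture of interneurons, Müller glia, ganglion cells, and progenitors, so its values average over several cell types. The hour at which retinas were collected is not given in the sources used here. Since no condition has a replicate library, differences within a stage or between ages were not tested, and the fractions were tested only over the 3 stages together, where each stage gives a pair of libraries from the same pool.

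The clock is a feedback loop of transcription. ARNTL, also called BMAL1, pairs with CLOCK or NPAS2 and switches on the Period (Per) and Cryptochrome (Cry) genes, whose proteins accumulate and then repress that pair, so that each turn of the loop takes about a day. A stabilising loop is formed by the nuclear receptors REV-ERBα (Nr1d1) and REV-ERBβ (Nr1d2), which repress Arntl, against the ROR receptors, which activate it. The retina holds clocks of its own and is known for daily rhythms of melatonin, dopamine, and photoreceptor outer segment shedding. In adult tissues the RNAs of several of these genes cycle over the day, so each level below is that of a library at an unknown hour.

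Proximal promoters are shown for the members that differed between the sorted fractions at 2 stages and have a sequence in the RefSeq table used, because known clock elements can be read in them directly. The RefSeq sequences are from build GRCm38.p6, and 9 of 10 members had an entry, in 13 windows. Each run below is the 250 bases before an annotated start of transcription. Capitals mark matches to motifs searched on both strands, which were the E-box CACGTG, the related CACGTT, the D-box forms TTATGTA and TTACGTA, the receptor half-site AGGTCA, and the cAMP response element TGACGTC.
Per1, upstream start site (chr11:69098699-69098948, plus strand): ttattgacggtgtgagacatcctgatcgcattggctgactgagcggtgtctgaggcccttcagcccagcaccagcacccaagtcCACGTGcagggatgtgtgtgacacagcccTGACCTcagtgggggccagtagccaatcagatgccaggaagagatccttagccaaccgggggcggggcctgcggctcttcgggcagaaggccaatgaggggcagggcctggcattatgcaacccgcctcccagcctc
Per1, downstream start site (chr11:69099902-69100151, plus strand): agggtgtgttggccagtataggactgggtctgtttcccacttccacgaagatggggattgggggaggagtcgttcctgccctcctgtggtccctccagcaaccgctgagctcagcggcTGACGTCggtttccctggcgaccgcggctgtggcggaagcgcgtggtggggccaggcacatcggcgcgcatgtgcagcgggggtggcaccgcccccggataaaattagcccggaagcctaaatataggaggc
Per3 (chr4:151044666-151044915, minus strand): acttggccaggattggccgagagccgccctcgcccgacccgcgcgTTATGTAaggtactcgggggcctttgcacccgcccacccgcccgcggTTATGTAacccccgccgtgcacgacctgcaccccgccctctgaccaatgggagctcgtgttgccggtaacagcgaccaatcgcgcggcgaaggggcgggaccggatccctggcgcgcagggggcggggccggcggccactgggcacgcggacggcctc
Cry1 (chr10:85185055-85185304, minus strand): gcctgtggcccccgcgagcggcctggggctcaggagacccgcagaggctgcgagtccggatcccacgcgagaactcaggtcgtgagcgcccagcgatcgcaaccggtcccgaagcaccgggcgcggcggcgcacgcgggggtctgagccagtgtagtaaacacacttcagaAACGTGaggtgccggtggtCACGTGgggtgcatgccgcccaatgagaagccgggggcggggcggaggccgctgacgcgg
Nr1d1 (chr11:98775378-98775627, minus strand): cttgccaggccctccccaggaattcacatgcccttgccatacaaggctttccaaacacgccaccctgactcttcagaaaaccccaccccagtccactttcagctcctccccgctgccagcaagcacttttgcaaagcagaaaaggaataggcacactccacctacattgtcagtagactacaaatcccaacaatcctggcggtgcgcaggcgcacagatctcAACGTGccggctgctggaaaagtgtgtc

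The upstream Per1 window held CACGTG at -166 to -161 and the reverse complement of AGGTCA at -137 to -132, counted from the start of transcription. The downstream Per1 window held TGACGTC at -132 to -126. The Per3 window held TTATGTA at -205 to -199 and again at -158 to -152. The Cry1 window held CACGTG at -60 to -55 and the reverse complement of CACGTT at -79 to -74, and the Nr1d1 window held the latter form at -28 to -23. No match overlapped another. Among all 32851 windows of this kind, which run from 250 bases before to 50 bases after the start, 7.15% held CACGTG, 4.68% held CACGTT, 2.63% held TTATGTA, 0.475% held TTACGTA, 16.3% held AGGTCA, and 3.21% held TGACGTC. Of the 13 member windows, 2 held CACGTG, 3 held CACGTT, 1 held TTATGTA, 0 held TTACGTA, 4 held AGGTCA, and 1 held TGACGTC. Matches were thus also present in members not shown above, CACGTT in Cry2 and AGGTCA in Arntl, Clock, and Nr1d2. A match describes letters in a window and is not evidence that a factor binds there.

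Levels are given as FPKM, an abundance per unit of transcript length and of sequencing depth, so that levels can be compared between genes. Each FPKM has a lower and an upper bound from Cufflinks, which describe the estimate within a library and not the variation between animals. All 80 member values had a successful estimate. Differences between libraries are differences of log2(FPKM + 1), which understate the change of weakly expressed genes, and a difference is called past the threshold when it exceeds 1.5-fold on this scale. The background for each comparison is the share of genes past 1.5-fold among those with an FPKM of at least 1 in either library.

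Between the fractions, Cry1 and Per1 were higher in the rod fraction Cd73PC, and Per2, Per3, and Nr1d1 were higher in Cd73NC, each past 1.5-fold at 2 of the 3 stages. Arntl and Clock stayed within 1.5-fold at all 3 stages. Cry2 was the member with the widest range over the libraries on the log2(FPKM + 1) scale, and it was more than 1.5-fold higher at P8 than at P2 in both fractions. Npas2 was barely detected. The plot of levels by library shows all 80 values.

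**Figure D1:**
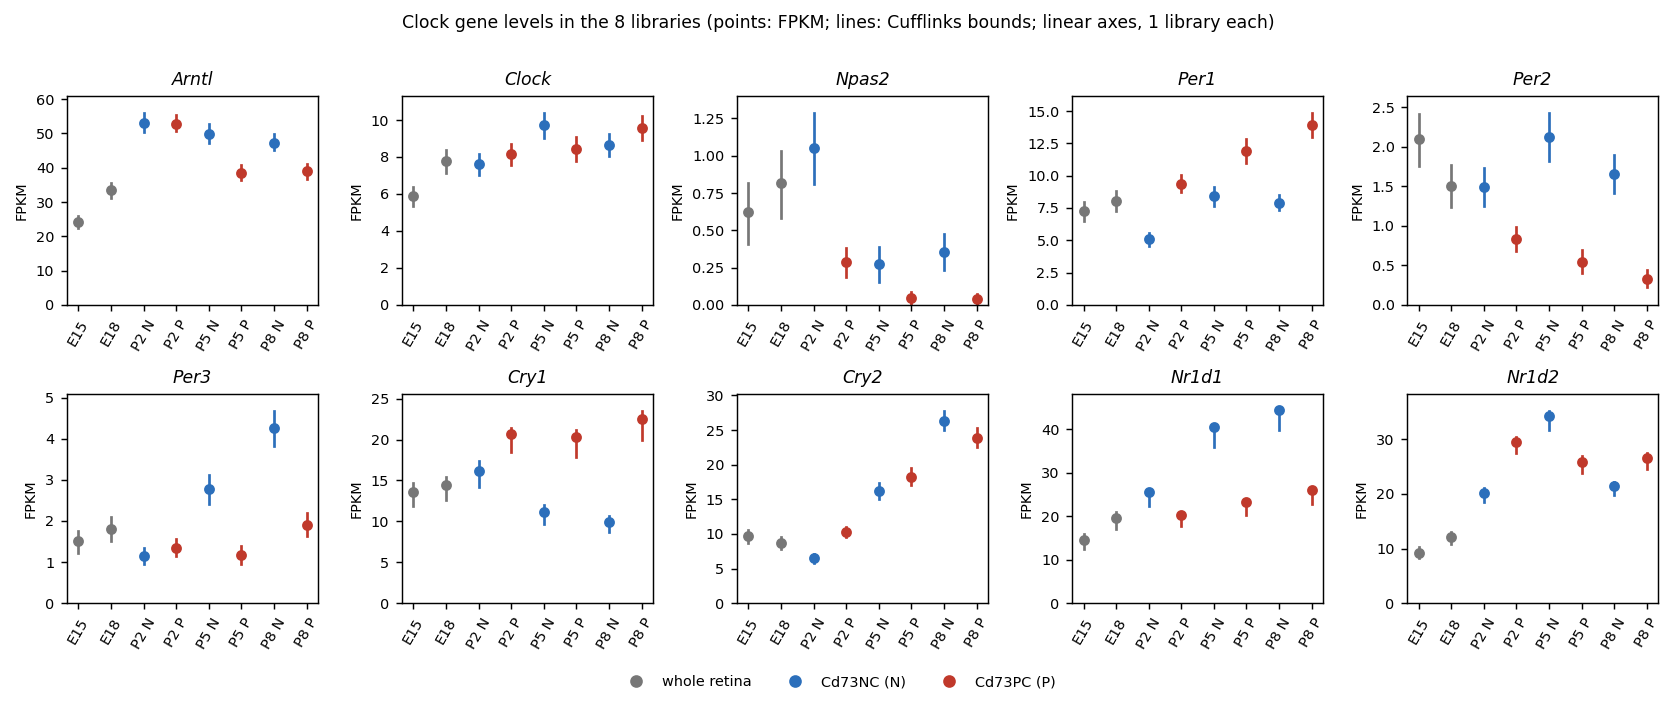
FPKM (linear vertical axes) of the 10 clock genes in the 8 libraries, with points for the value of 1 library each and lines for its Cufflinks bounds. Grey is whole retina, blue Cd73NC (N), and red Cd73PC (P). Per2 lies between 0.333 and 0.836 in the 3 Cd73PC libraries and between 1.49 and 2.13 in the other 5, whereas Cry1 is at 20.3 to 22.5 in the 3 Cd73PC libraries and at 9.98 to 16.1 in the other 5.

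The sort and the libraries were as follows. Nt5e was at 97.3, 131, and 124 FPKM in Cd73PC at P2, P5, and P8, against 2.43, 31.4, and 9.38 in Cd73NC. All 7 rod markers read (Nrl, Nr2e3, Gnat1, Pde6b, Sag, Cnga1, and Rom1) were past 1.5-fold higher in Cd73PC at each stage, and their levels in Cd73NC were a median of 1.36%, 9.19%, and 7.33% of those in Cd73PC from the youngest stage to the oldest. Rod RNA was thus present in Cd73NC, more so at P5 and P8. The depth relative to E18, read from the steps that 1 read makes in weak rows, ranged from 0.966 (E15) to 1.62 (P2 Cd73PC), and the absolute depth is unknown.

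Markers of other cells moved with the fraction and with age, and their part in the clock gene values was not tested. Of 8 progenitor and cell cycle markers, 8, 7, and 7 were lower in Cd73PC at P2, P5, and P8, and their summed level was 1106 FPKM at P2 and 90.4 at P8 in Cd73NC and 319 and 62.7 in Cd73PC. Of 6 Müller glia markers, 4, 5, and 6 were lower in Cd73PC, with sums of 1090 to 1511 FPKM in Cd73NC and 319 to 478 in Cd73PC. The 6 bipolar markers summed to 9.69, 56.9, and 907 FPKM in Cd73NC, with Grm6 listed at 0 at P2, and to 12.7, 16.2, and 104 in Cd73PC, and all 6 were lower in Cd73PC at P8. All 4 microglia markers were higher in Cd73PC at P2 (34.4 against 5.89 FPKM summed), 2 of 4 were lower at P5, and none passed 1.5-fold at P8 (96.5 against 124). Erythroid markers summed to between 36.5 FPKM in P2 Cd73PC and 5170 in P8 Cd73NC, with 1, 1, and 2 of 3 lower in Cd73PC. Of 6 cone markers, 2, 1, and 3 were higher and 0, 1, and 0 lower. Of 4 amacrine markers, 1 was higher at each stage and 3, 2, and 2 were lower. Of 6 ganglion cell markers, 1 was higher and 3 lower at P2 and none passed at P5 or P8. They summed to 833 and 517 FPKM in E15 and E18 and to 2.95 to 14.3 in the sorted libraries. Of 4 horizontal markers, 1 was lower at P5 and at P8, and of 4 endothelial markers, 0, 1, and 0 were higher and 2, 1, and 1 lower. In bulk samples such as these, fewer cells of a type and less RNA per cell cannot be told apart.

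Among the activators, Arntl (chr7:120350979-120457640, plus strand; this and the following positions are on NCBI37/mm9) was the member with the highest FPKM in every library. It was at 24.2 FPKM in E15, 33.4 in E18, 53.1 in P2 Cd73NC, 52.8 in P2 Cd73PC, 49.9 in P5 Cd73NC, 38.6 in P5 Cd73PC, 47.2 in P8 Cd73NC, and 38.9 in P8 Cd73PC. The 6 postnatal values thus all lay above both embryonic values. The log2 difference between Cd73PC and Cd73NC came to -0.01, -0.36, and -0.27 in order of age, all within 1.5-fold, and the bounds of the fractions lay apart at P5 and P8. The P2 difference turned positive, to 0.08 and 0.06, under upper-quartile scaling and quantile normalization.

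Clock (chr5:76641202-76733573, minus strand), the partner of ARNTL, had the narrowest range of the 10 genes, 0.64 on the log2 scale. It was at 5.87 FPKM in E15, 7.76 in E18, 7.61 in P2 Cd73NC, 8.15 in P2 Cd73PC, 9.71 in P5 Cd73NC, 8.44 in P5 Cd73PC, 8.64 in P8 Cd73NC, and 9.59 in P8 Cd73PC. No pair of libraries of a stage differed past 1.5-fold, and the bounds of the fractions overlapped at all 3 stages. The log2 differences were 0.09, -0.18, and 0.14, of which the P5 value became 0.06 under quantile normalization.

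Npas2 (chr1:39251117-39420085, plus strand), which can take the place of CLOCK, was at 0.621 FPKM in E15, 0.816 in E18, 1.05 in P2 Cd73NC, 0.288 in P2 Cd73PC, 0.275 in P5 Cd73NC, 0.0447 in P5 Cd73PC, 0.353 in P8 Cd73NC, and 0.0394 in P8 Cd73PC. It reached an FPKM of 1 in 1 of 8 libraries, and its lower bound was 0 in Cd73PC at P5 and P8. Its level per length was between 0.138 of that of Clock (P2 Cd73NC) and 0.0041 (P8 Cd73PC). At P2 it was lower in Cd73PC past the threshold, by a log2 difference of -0.67. At P5 and P8 both libraries were below an FPKM of 1, the differences were -0.29 and -0.38 with a pseudocount of 1, and without it they were -2.62 and -3.17. In the NCBIM37 annotation, 2 pseudogenes overlap Npas2, by 283 and 555 bases, and whether their reads contribute was not tested.

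Of the Period genes, the repressors whose proteins bind the cryptochromes, Per1 (chr11:68912458-68923459, plus strand) had the highest level in every library. It was at 7.23 FPKM in E15, 8.03 in E18, 5.07 in P2 Cd73NC, 9.37 in P2 Cd73PC, 8.39 in P5 Cd73NC, 11.9 in P5 Cd73PC, 7.92 in P8 Cd73NC, and 13.9 in P8 Cd73PC. The 3 Cd73PC values all lay above the other 5. The log2 differences were 0.77 at P2 and 0.74 at P8, past the threshold, and 0.46 at P5, which passed it under quantile normalization alone of the settings tried.

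Per1 also responds to acute signals, as immediate early genes do, so a list of 14 immediate early genes was read beside it. At P2, 4 of them (Fos, Junb, Egr1, and Nr4a1) were higher in Cd73PC and Arc was lower. At P5, Nr4a1 was higher, beside 12.3%, and Fos, Egr1, Ier2, and Dusp1 were lower, beside 27%. At P8, Junb was higher, beside 13%, and the same 4 genes were lower, beside 31.3%. Junb was at 3.80, 8.20, and 4.66 FPKM in Cd73NC and at 17.3, 11.0, and 9.27 in Cd73PC. Fos was at 5.61, 10.1, and 22.0 FPKM in Cd73NC and at 10.5, 3.39, and 3.31 in Cd73PC. Whether dissociation and sorting contributed to these values was not tested.

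Per2 (chr1:93312559-93355905, minus strand) went the other way. It was at 2.09 FPKM in E15, 1.5 in E18, 1.49 in P2 Cd73NC, 0.836 in P2 Cd73PC, 2.13 in P5 Cd73NC, 0.547 in P5 Cd73PC, 1.65 in P8 Cd73NC, and 0.333 in P8 Cd73PC. All 3 Cd73PC values were below the other 5, and the bounds of the fractions lay apart at each stage. The log2 differences were -0.44, -1.01, and -0.99, of which those at P5 and P8 were past the threshold. With no pseudocount the differences were -0.84, -1.96, and -2.31, and that at P2 passed the threshold with pseudocounts of 0.1 and 0.

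Per3 (chr4:150377764-150418731, minus strand) separated the fractions at P5 and P8 but not at P2. It was at 1.5 FPKM in E15, 1.81 in E18, 1.15 in P2 Cd73NC, 1.35 in P2 Cd73PC, 2.78 in P5 Cd73NC, 1.18 in P5 Cd73PC, 4.25 in P8 Cd73NC, and 1.91 in P8 Cd73PC. The P5 and P8 Cd73NC values were the highest 2 of the 8. The log2 differences were 0.13 at P2, where the bounds overlapped, and -0.79 and -0.85 at P5 and P8. Under quantile normalization Per3 was no longer past the threshold at P5 or P8.

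The balance within the Period family differed between the fractions in each pair of libraries. Per1 made up 65.7%, 63.1%, and 57.3% of the summed Period FPKM in Cd73NC at P2, P5, and P8, and 81.0%, 87.3%, and 86.1% in Cd73PC. Per1 exceeded Per2 by a factor of 3.40 to 4.80 in the Cd73NC libraries, 3.45 in E15, and 5.34 in E18. In Cd73PC the same ratio was 11.2, 21.7, and 41.6. At P8, Per2 was 2.07% of the Period sum in Cd73PC and 11.9% in Cd73NC, whereas Per3 was 11.8% and 30.8%. A common factor applied to a library leaves these ratios unchanged.

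Cry1 (chr10:84594445-84647799, minus strand) encodes a strong repressor of the ARNTL and CLOCK pair. It was at 13.6 FPKM in E15, 14.5 in E18, 16.1 in P2 Cd73NC, 20.7 in P2 Cd73PC, 11.1 in P5 Cd73NC, 20.3 in P5 Cd73PC, 9.98 in P8 Cd73NC, and 22.5 in P8 Cd73PC. Cd73PC stayed near the same level from P2 to P8, and Cd73NC was lower at P5 and P8 than at P2. The log2 differences were 0.34 at P2, within the threshold, and 0.81 and 1.10 at P5 and P8, past it. The P8 difference, 1.10, stood at percentile 93.6 of all genes tested at that stage.

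Cry2 (chr2:92243804-92274226, minus strand), its paralog, varied more with age than with the fraction. It was at 9.68 FPKM in E15, 8.65 in E18, 6.48 in P2 Cd73NC, 10.2 in P2 Cd73PC, 16.2 in P5 Cd73NC, 18.3 in P5 Cd73PC, 26.3 in P8 Cd73NC, and 23.9 in P8 Cd73PC. The 4 values of P5 and P8 lay above the 4 earlier ones. The log2 difference between fractions was 0.59 at P2, just past the threshold of 0.58, and 0.16 and -0.13 at P5 and P8, where the bounds overlapped. The P8 value became 0.01 under quantile normalization. A noncoding gene on the opposite strand, D930015M05Rik, overlaps Cry2 over 23417 bases. It was at 0.0451 to 0.527 FPKM, and reads of the 2 genes cannot be told apart by strand in these libraries.

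The order of the 2 cryptochromes was not the same in all libraries. Cry1 exceeded Cry2 by a factor of 1.41 in E15, 1.67 in E18, 2.49 in P2 Cd73NC, and 2.02 in P2 Cd73PC. At P5 the ratio was 0.684 in Cd73NC and 1.11 in Cd73PC, and at P8 it was 0.38 in Cd73NC and 0.94 in Cd73PC. The Cufflinks bounds of both genes overlapped in Cd73PC at P5 and P8 and lay apart in Cd73NC, so the crossing was resolved within the libraries of Cd73NC alone. Their summed level ran from 22.6 to 36.3 FPKM in Cd73NC and from 30.9 to 46.4 in Cd73PC.

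**Figure D2:**
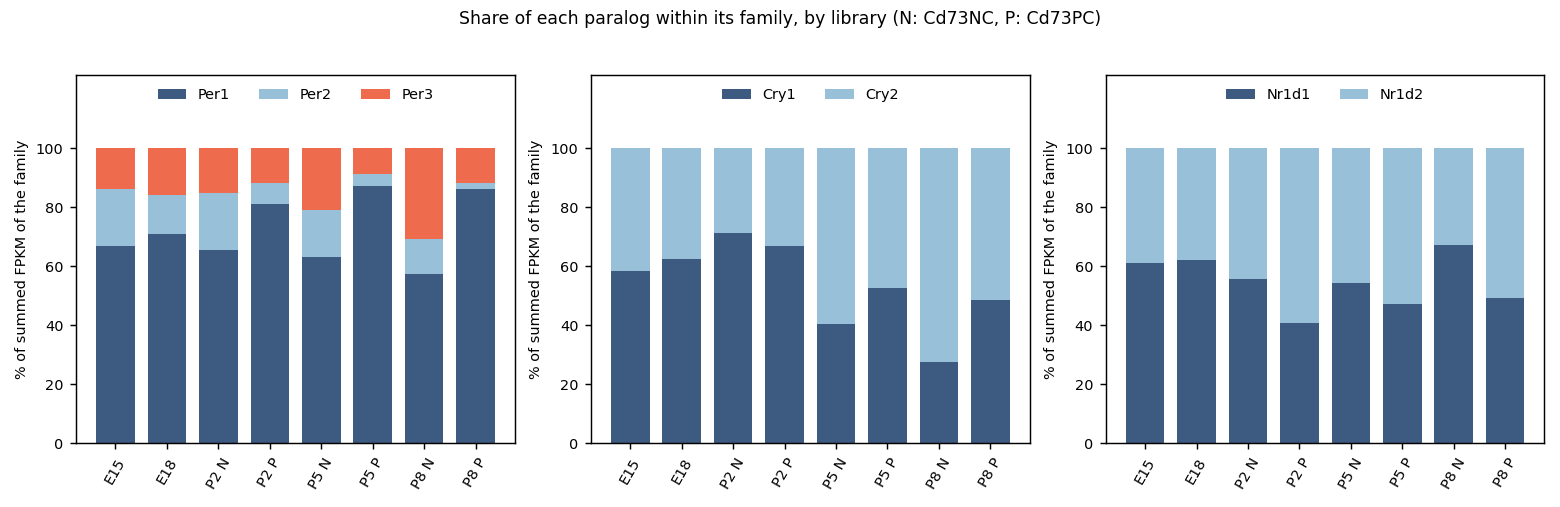
Share (%, linear axis) of each paralog in the summed FPKM of the Period, Cryptochrome, and Nr1d families, with 1 stacked bar for each of the 8 libraries (N is Cd73NC and P is Cd73PC). Per1 fills 81.0% to 87.3% of the Period bar in the 3 Cd73PC libraries, and the Cry1 share is 27.5% in P8 Cd73NC.

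Nr1d1 (chr11:98629249-98636556, minus strand) encodes the repressor REV-ERBα. It was at 14.6 FPKM in E15, 19.7 in E18, 25.5 in P2 Cd73NC, 20.2 in P2 Cd73PC, 40.6 in P5 Cd73NC, 23.3 in P5 Cd73PC, 44.5 in P8 Cd73NC, and 25.9 in P8 Cd73PC. It was higher in Cd73NC than in Cd73PC at each stage, with bounds apart, and the log2 differences of -0.78 at P5 and -0.76 at P8 were past the threshold while that of -0.32 at P2 was not. The P8 Cd73NC value lay outside its own bounds, 39.7 to 44.2, the only member value that did.

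Nr1d1 lies tail to tail with Thra, a thyroid hormone receptor gene on the opposite strand. The NCBIM37 annotation has them overlap over 1075 bases, while no overlap was found in the coordinates deposited with the FPKM values. Thra was at 86.0, 73.5, and 162 FPKM in Cd73NC and at 68.6, 55.0, and 48.5 in Cd73PC at P2, P5, and P8, and at 76.9 and 100.5 in E15 and E18. Its log2 differences were -0.32, -0.41, and -1.72, so Thra had the same direction as Nr1d1 and was past the threshold at P8 only. The library kit does not mark strand, and the share of Nr1d1 reads from the overlap was not tested.

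Nr1d2 (chr14:19036570-19071620, minus strand), the gene of REV-ERBβ, did not follow Nr1d1. It was at 9.27 FPKM in E15, 12.1 in E18, 20.2 in P2 Cd73NC, 29.6 in P2 Cd73PC, 34.2 in P5 Cd73NC, 25.8 in P5 Cd73PC, 21.5 in P8 Cd73NC, and 26.6 in P8 Cd73PC. Which fraction was higher changed from stage to stage. The log2 differences were 0.53, -0.39, and 0.29, all within 1.5-fold although the bounds lay apart each time, and the P2 value passed the threshold under upper-quartile scaling. Nr1d1 exceeded Nr1d2 in E15, E18, and all 3 Cd73NC libraries, by a factor of 1.19 to 2.07, whereas in Cd73PC the ratio was 0.685, 0.9, and 0.973, and the bounds of both genes overlapped there at P5 and P8.

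Counted over the 10 members at P2, 2 were higher in Cd73PC (Per1 and Cry2), beside 14.5% of 12336 genes tested, and 1 was lower (Npas2), beside 25%. At P5, 1 was higher (Cry1), beside 12.3% of 12231 genes, and 3 were lower (Per2, Per3, and Nr1d1), beside 27%. At P8, 2 were higher (Per1 and Cry1), beside 13% of 12365 genes, and the same 3 were lower, beside 31.3%. With 10 members these counts lie close to the background shares in both directions. The median log2 difference of the members was 0.11, -0.33, and -0.20 at P2, P5, and P8, against -0.14, -0.18, and -0.23 over all genes tested. At 2 or 3 stages, 2 of 10 members were higher and 3 lower, beside 10.9% and 25% of 13057 genes with an FPKM of at least 1 in a sorted library. Closest to the threshold at P2 were Cry2, past it with 0.59, and Nr1d2, which did not pass with 0.53.

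Over the 3 stages together, the fractions were compared by a limma fit across 13057 genes with the stage as a block, a fit chosen after the data were seen. Because its pairs are of different ages, its error includes any change of the fraction difference with age, and it has 2 residual degrees of freedom. Per1 and Cry1 were higher in Cd73PC in 3 of 3 pairs, with mean log2 differences of 0.66 ± 0.15 (SE, limma adjusted p = 0.0297) and 0.75 ± 0.18 (limma adjusted p = 0.0352). Per2 and Nr1d1 were lower in 3 of 3 pairs, with -0.82 ± 0.22 (limma adjusted p = 0.0464) and -0.62 ± 0.15 (limma adjusted p = 0.0347). The other 6 members did not pass an adjusted p of 0.05 in this limma fit, Per3 with -0.51 ± 0.26 (adjusted p = 0.199) and Npas2 with -0.45 ± 0.22 (adjusted p = 0.184) among them. Thus 2 of 10 members were higher and 2 lower, beside 8.9% and 19.2% of all genes in the same fit. All 4 calls were lost without the P5 pair, without the P8 pair, or with no filter on low values, where the adjusted p of limma ran from 0.0922 to 0.294. Calls over all genes also fell, to 1.37% higher and 0.842% lower without the P5 pair and to 0% and 0% with no filter. Without the P8 pair they were 6.26% and 13.8%. Without the P2 pair Per1 alone was lost (limma adjusted p = 0.0771), and Per2 and Nr1d1 were lost under upper-quartile scaling and quantile normalization (limma adjusted p = 0.053 to 0.0979).

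**Figure D3:**
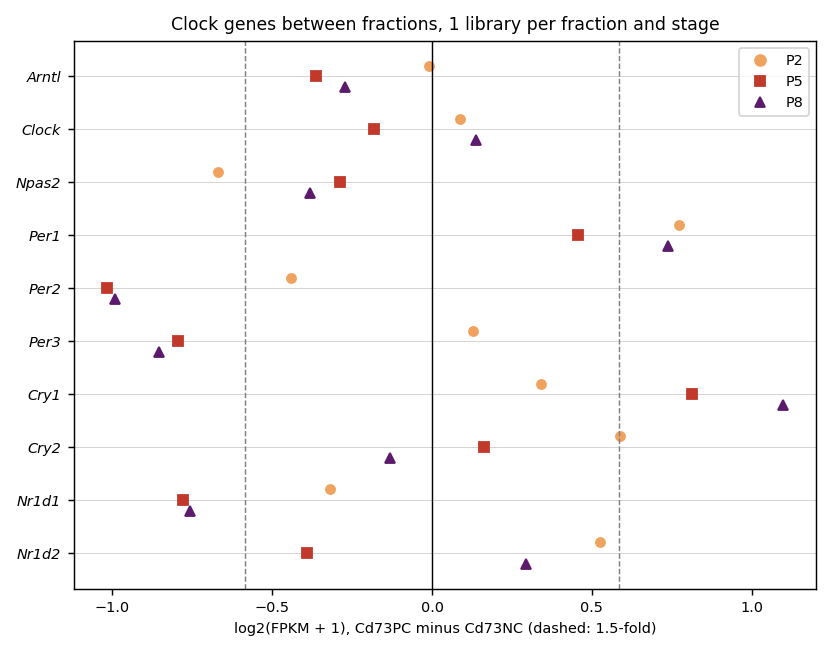
Difference of log2(FPKM + 1) between Cd73PC and Cd73NC (linear horizontal axis, positive when Cd73PC is higher) for the 10 clock genes at P2 (circles), P5 (squares), and P8 (triangles), with 1 library per fraction and stage and dashed lines at 1.5-fold. Per1 and Cry1 lie to the right of 0 at all 3 stages and reach 0.77 and 1.10, and Per2 and Nr1d1 lie to the left and reach -1.01 and -0.78.

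By FPKM, Arntl came first among the members in all 8 libraries and was apart from the next gene by its bounds. Nr1d1 came second in E15, E18, and the Cd73NC libraries, and in E15 its bounds overlapped those of Cry1, the next gene. Nr1d2 came second in the Cd73PC libraries, where its bounds overlapped those of Nr1d1 at P5 and P8. In P8 Cd73PC, the bounds of neighbours overlapped along the run Nr1d2, Nr1d1, Cry2, and Cry1, at 26.6, 25.9, 23.9, and 22.5 FPKM, so neighbours in this run were not resolved, while the bounds of Nr1d2 and Cry1 at its ends lay apart. Per2, Per3, and Npas2 took the last 3 places in every library. Among genes with an FPKM of at least 1, Arntl stood between percentiles 72.9 and 87.9, Per1 between 24.0 and 56.5, and Clock between 27.6 and 45.0.

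With age, no member passed 1.5-fold between E15 and E18, where 7.6% of genes tested were higher and 3.47% lower at E18. The member differences ran from -0.30 (Per2) to 0.45 (Arntl). In Cd73PC, Cry2 alone passed between P2 and P5, with a log2 difference of 0.78, beside 5.92% higher and 15.3% lower among all genes. No member passed between P5 and P8 (5.94% higher and 8.54% lower), and over the whole span from P2 to P8 Cry2 again was the only member past the threshold, with 1.15 (11.2% higher and 25.7% lower). Upper-quartile scaling added Per1 to this last comparison and quantile normalization added Per1 and Per3.

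In Cd73NC more members differed with age. Between P2 and P5, Per1 (0.63), Per3 (0.81), Cry2 (1.204), Nr1d1 (0.65), and Nr1d2 (0.73) were higher at P5, which is 5 of 10 beside 13.1% of all genes, and Npas2 (-0.69) was lower, beside 16.3%. Between P5 and P8, Cry2 was higher (0.66, beside 14.1%) and Nr1d2 was lower (-0.64, beside 13.2%). From P2 to P8, Per3 (1.29), Cry2 (1.87), and Nr1d1 (0.78) were higher, beside 21.6%, and Npas2 (-0.60) and Cry1 (-0.64) were lower, beside 24%. Under upper-quartile scaling Npas2 (-0.55) and Cry1 (-0.54) no longer passed. Per1, within the threshold here with 0.56, passed it under upper-quartile scaling, quantile normalization, and pseudocounts of 0.1 and 0. The summed rod marker level in Cd73NC was 79.1, 1014, and 755 FPKM at these 3 stages, and the part of these rod transcripts in the differences was not tested. Comparisons that share a library, such as those with P5 Cd73NC on either side, are not independent of each other.

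Other genes of the clock loop were read from a list of 13. At P2, P5, and P8, 3, 2, and 2 were higher in Cd73PC, beside 14.5%, 12.3%, and 13% of all genes, and 5, 5, and 6 were lower, beside 25%, 27%, and 31.3%, with medians of -0.01, -0.49, and -0.20 beside -0.14, -0.18, and -0.23 over all genes tested. Among the ROR receptors that compete with REV-ERB, Rora was at 3.88, 7.87, and 10.3 FPKM in Cd73NC and at 8.98, 12.96, and 20.9 in Cd73PC at P2, P5, and P8, past the threshold at each stage. Rorb, the retinal member of the family, was more abundant than Rora in every library, at 37.1 to 81.8 FPKM over the 8 libraries, and stayed within 1.5-fold between the fractions. Bhlhe41 (DEC2), a repressor that competes for E-boxes, was at 0.214, 2.27, and 4.61 FPKM in Cd73NC and at 3.03, 7.98, and 15.3 in Cd73PC, with log2 differences of 1.73, 1.46, and 1.54.

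The PAR-domain activators of D-boxes differed among themselves. Tef was higher in Cd73PC past the threshold at P2 (0.61) and within it at P5 (-0.26) and P8 (0.03). Hlf was lower in Cd73PC at all 3 stages, with log2 differences of -0.69, -0.88, and -1.13. Dbp was at 2.64, 8.76, and 15.9 FPKM in Cd73NC and at 4.20, 4.43, and 6.97 in Cd73PC, with differences of 0.51, -0.85, and -1.09, the last 2 past the threshold. The repressor Nfil3 (E4BP4), which binds the same element, was lower at all 3 stages (-0.88, -1.01, and -1.29), at 20.2 to 23.3 FPKM in Cd73NC and 8.75 to 12.2 in Cd73PC. Gm129 (Ciart, or CHRONO, a repressor of the ARNTL and CLOCK pair) was lower as well (-0.69, -0.97, and -1.63). Timeless, which in mammals also serves DNA replication, was lower at the 3 stages (-1.32, -0.59, and -1.02). It was at 11.1 FPKM in P2 Cd73NC against 3.37 in P8 Cd73NC. In these libraries the cell cycle markers summed to 1106 and 90.4 FPKM, and their part in the Timeless values was not tested.

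Clock proteins are timed by enzymes that modify them or control their breakdown. Of 11 genes for kinases, ubiquitin ligase subunits, the deubiquitinase Usp2, and the deacetylase Sirt1, 3, 1, and 2 were higher in Cd73PC at P2, P5, and P8, beside 14.5%, 12.3%, and 13% of all genes. Of the same 11 genes 0, 3, and 3 were lower, beside 25%, 27%, and 31.3%. Their median log2 differences were -0.06, -0.16, and -0.27, beside -0.14, -0.18, and -0.23 over all genes tested. Fbxl21, which encodes an F-box protein that targets the cryptochromes, was at 1.10, 1.67, and 0.573 FPKM in Cd73NC and at 5.86, 4.61, and 3.17 in Cd73PC, past the threshold at all 3 stages. Sirt1 was higher past it at P2 (0.83) and P8 (1.18), with 0.34 at P5. The kinase genes Csnk1e (-0.96 and -1.30) and Csnk2a1 (-0.76 and -0.76) were lower in Cd73PC at P5 and P8. Csnk1d, a kinase of the PER proteins, was at 61.3 to 69.7 FPKM in Cd73NC and at 44.0 to 51.3 in Cd73PC and stayed within 1.5-fold.

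**Figure D4:**
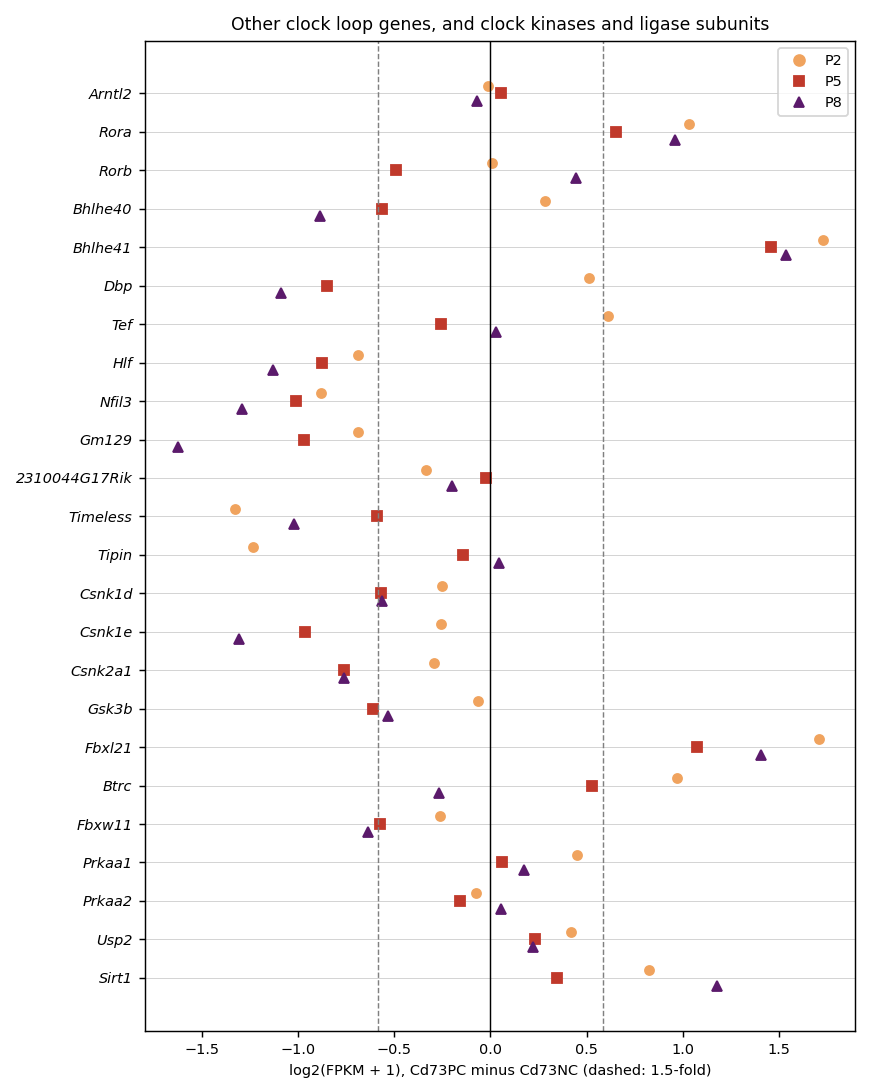
Difference of log2(FPKM + 1) between Cd73PC and Cd73NC (linear horizontal axis) for 13 further clock loop genes and 11 clock kinase, ligase, and related genes at P2 (circles), P5 (squares), and P8 (triangles), with 1 library per fraction and stage and dashed lines at 1.5-fold. Rora, Bhlhe41, and Fbxl21 lie past the right line at all 3 stages, and Hlf, Nfil3, Gm129, and Timeless past the left one, where Timeless at P5 (-0.59) is just beyond it.

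The genes whose pattern over the 8 libraries was most like that of a member were found by Pearson's r of log2(FPKM + 1) among 6553 or 6554 genes with a maximum FPKM of at least 5 and a log2 range of at least 1. The points share libraries and fractions, so r only describes likeness. For Cry1, whose level was high in Cd73PC, these were Zdhhc2 (r = 0.98) and Suv39h2 (r = 0.98). For Per1 they were Ccdc24 and Dctn1 (r = 0.98 each). For Per2, low in Cd73PC, they were Dchs1 (r = 0.996) and Fzd3 (0.99). For Per3 they were Ctgf (0.99) and Podn (0.98), for Cry2 Rtn4rl2 and Dusp8 (0.99 each), and for Arntl Rnf13 (0.98) and Glrx2 (0.97). For Nr1d1 they were Tmcc3 (0.99) and Bmp3 (0.97), and for Nr1d2 Txndc16 (0.98) and Ppp1r15a (0.97). Clock and Npas2 ranged by less than 1 on the log2 scale and were left out of this search.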

How the data were processed

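RNA from 8 samples (1 library per condition) was sequenced by the authors as single-end reads of 36 bases from random-primed cDNA without strand marks. Per the labels and the study's methods, reads were handled with CASAVA 1.8.2 and bcl2fastq 1.8.4, aligned to NCBI37/mm9 with TopHat2 2.0.8b, and summarised with Cufflinks 2.1.1. The deposited tables hold, in 23021 rows each, the authors' FPKM with confidence bounds. Read counts were not used here, so the absolute depth is unknown, no count model could be fitted, and no interval or detection limit from counting is given.

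From these FPKM values, 787 rows of small RNAs were left out by symbol and rows sharing a symbol were summed, which left 21828 genes. Between 4 and 10 rows per table were marked as failed by Cufflinks and 20 genes had such a row, none a clock gene. Values were compared as log2(FPKM + 1) with the study's threshold of 1.5-fold, against genes with an FPKM of at least 1 in either library. Samples were grouped by their titles and ages. Since each condition has 1 library, single stages and ages were not tested. Over the 3 stages the fractions were compared with limma (trend, stage as block, Benjamini-Hochberg adjustment, threshold 0.05), on genes with an FPKM of at least 1 in a sorted library, an alternative added after seeing the data. Named genes were the 10 members, genes of the lists of clock loop genes, clock kinases and ligases, clock outputs and inputs, and immediate early genes that passed 1.5-fold between fractions at 2 or 3 stages, genes overlapping a member, and the 2 genes most alike in pattern. Rorb, Tef, Csnk1d, Usp2, Arc, and outputs outside this rule were named after their values were seen. The members and all lists, cell-type markers included, were chosen with earlier results of these data known. Asmt, Tfap2a, and Tfap2b had no row. A few genes of the lists are not reported here, and counts and sums are over the rest. Promoters came from RefSeq (GRCm38.p6) and were matched by symbol only. The alternatives were pseudocounts of 0.1 and 0, upper-quartile scaling, quantile normalization, a threshold of 2-fold, non-overlapping bounds, and no filter on low values. Analyses used Python 3.11.15, numpy 2.4.6, pandas 2.3.3, matplotlib 3.10.9, R 4.3.3, and limma 3.58.1. The fold counts and the limma fit were checked on simulated data of well expressed genes. The simulated shifts were larger than those of the members on the log2(FPKM + 1) scale, and in the fit they were equal at all 3 stages. Smaller or age-dependent differences, and weakly expressed genes, were not checked.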

Additional observations from a re-analysis of the deposited data

Results flagged for a closer look

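For 4 genes of the related lists, and for none of the 10 clock genes, a difference past 1.5-fold pointed one way at 1 stage or in 1 fraction and the other way in another. These differences between stages were not tested, since each condition has 1 library. Adcy1, a calcium-stimulated adenylyl cyclase, had a Cd73PC minus Cd73NC difference of -0.64 at P2, 1.19 at P5, and 2.91 at P8 (log2 scale), with 1.15, 6.17, and 20.6 FPKM in Cd73PC and 2.35, 2.16, and 1.87 in Cd73NC. Mtnr1a, a melatonin receptor gene, had differences of 1.17, -0.50, and -0.84, with 6.84, 1.55, and 0.201 FPKM in Cd73PC and 2.49, 2.61, and 1.15 in Cd73NC. Fos had differences of 0.80, -1.34, and -2.42, and its P8 minus P2 difference was -1.42 in Cd73PC and 1.80 in Cd73NC. Egr1, another immediate early gene, had differences of 0.85, -0.89, and -1.08, with 17.01, 13.2, and 15.9 FPKM in Cd73PC and 9.01, 25.3, and 34.9 in Cd73NC. Microglia markers were higher in Cd73PC at P2 and not at P5 or P8, and their part in these values was not tested.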

How the results depend on the processing

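The paired analysis, a limma fit with the stage as a block, was added after seeing the data and gave 2 members higher and 2 lower in Cd73PC. These counts were 0 and 0 with no filter on low values, where no gene passed and 1738 and 3833 genes had an unadjusted limma p under 0.05. They were 2 and 0 under upper-quartile scaling, beside 10.5% and 15.9% of all genes, and under quantile normalization, beside 12.1% and 12.7%. When 1 pair was left out they were from 0 to 1 and from 0 to 2, beside 1.37% to 7.8% and 0.842% to 17.2%. Among the comparisons of single libraries, non-overlapping Cufflinks bounds left all 20 counts of members within 1.5 times of the value reported. No difference changed direction among those past the threshold. In these comparisons the filter on low values applied to the background genes alone, so leaving it out could not change a count of members. Background shares of the single-library comparisons are given for 1.5-fold, a pseudocount of 1, and no rescaling only, so the counts below have no matching share. With a threshold of 2-fold, the counts of members higher and lower in Cd73PC were 0 and 0 at P2, 0 and 1 at P5 (Per2), and 1 (Cry1) and 0 at P8. With age at 2-fold, Cd73PC had 0 higher between P2 and P5, and Cd73NC had 1 higher and 0 lower between P2 and P5, 0 and 0 between P5 and P8, and 0 lower from P2 to P8. With a pseudocount of 0.1, 2 members were lower in Cd73PC at P2, and with age Cd73PC had 1 lower between P2 and P5, 1 higher between P5 and P8, and 2 lower from P2 to P8, while Cd73NC had 2 higher between P5 and P8. With a pseudocount of 0 these counts were 2, 2, 1, 2, and 2, and 1 member was lower in Cd73PC between P5 and P8. Single-gene differences that shifted by at least 0.58 on the log2 scale did so under the pseudocounts alone, 10 with 0.1 and 11 with 0. They belonged to the weakly expressed Npas2, Per2, and Per3. Smaller shifts under the 2 scalings also carried some differences across the threshold, such as that of Per3 at P8, from -0.85 to -0.34 under quantile normalization. Upper-quartile scaling gave 2 higher in Cd73PC and 0 lower in Cd73NC from P2 to P8. Quantile normalization gave 2 higher in Cd73PC at P5 and 3 higher from P2 to P8 in Cd73PC, and shifted the median difference of all genes between fractions by 0.11, 0.19, and 0.25 at P2, P5, and P8. Adding 1 to each FPKM pulled ratios with weakly expressed genes towards 0 (log2 scale). Npas2 over Clock became -2.08 in E15, -2.27 in E18, -2.07, -3.07, and -2.83 in Cd73NC and -2.83, -3.18, and -3.35 in Cd73PC at P2, P5, and P8. Per1 over Per2 became 2.50, 3.06, and 3.48 in the 3 Cd73PC libraries, and Per3 over Per2 became 0.49 and 1.12 in Cd73PC at P5 and P8. Beyond these constructions the cause was not tested. With 1 library per condition, at an hour of collection not given in the sources used here, differences of phase, age, and cell makeup cannot be told apart in comparisons between ages. Both fractions of a stage share a pool and its age, but differences of clock phase and of cell makeup cannot be told apart between them either.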

Other observations

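Of 9 genes for known outputs and inputs of the retinal clock, 1 was higher and 1 lower in Cd73PC at P2 (Mtnr1a and Adcy1), beside 14.5% and 25% of all genes tested. At P5 it was 1 and 1 (Adcy1 and Drd4), beside 12.3% and 27%, and at P8 it was 1 and 2 (Adcy1, against Mtnr1a and Ccrn4l), beside 13% and 31.3%. Aanat, which encodes the enzyme that sets the rate of melatonin synthesis, stayed between 0 and 0.36 FPKM in the 8 libraries. Drd4, a dopamine receptor gene with a daily rhythm in adult photoreceptors, was at 0.415, 2.69, and 3.33 FPKM in Cd73NC and at 0.795, 0.889, and 2.81 in Cd73PC at P2, P5, and P8. Opn4, the melanopsin gene of photosensitive ganglion cells, was at 2.61 FPKM in E15 and 4.61 in E18 and at no more than 0.084 in the 6 sorted libraries. Adcyap1, whose peptide PACAP is released by the same cells, was at 6.604 and 2.07 FPKM in E15 and E18 and at no more than 0.111 in the sorted libraries. The 6 ganglion cell markers summed to 833 and 517 FPKM in E15 and E18 and to 2.95 to 14.3 in the sorted libraries. The part of ganglion cells in the Opn4 and Adcyap1 values was not tested. Nampt, a clock-controlled enzyme gene, was at 7.49 to 16.6 FPKM in the 8 libraries and within 1.5-fold between the fractions at all 3 stages. Mtnr1b was listed at 0 in all 8 libraries.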
